A study of Homo sapiens with 24 samples.

Results

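Chromatin accessibility was compared between HEK293 cells that overexpressed LMNB1, the gene of lamin B1, and cells that overexpressed LMNA, the gene of the A-type lamins. The comparison used 6 ATAC-seq libraries of the 24 libraries in the series, 3 per group, chosen by the overexpressed gene in the sample titles. HEK293 is an established human embryonic kidney cell line. The labels give its genotype as wild type in every group, and all cells, the eGFP controls included, overexpressed a protein. The promoter, vector and duration of overexpression are not given in the sources used here, nor is the cell stock behind each replicate, so the p-values measure only the spread between these samples. Each library was made from 100000 cells. The deposited table counts reads in 175946 windows, each an annotated non-coding RNA feature widened by a short margin on each side, among 1231278 windows in all once the flanking windows of 500, 5000 and 50000 bp are counted. Of the feature windows, 163786 had enough counts to be tested. The 3 eGFP libraries (labelled GFP) and 3 libraries of LMNB2, the other B-type lamin, were not compared but shared the estimate of the spread, and their values are given as levels.

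Lamins build the filament mesh beneath the inner nuclear membrane. B-type lamins remain tied to the membrane through a lipid anchor, whereas A-type lamins are found at the envelope and also in the nuclear interior. Chromatin that contacts the lamina forms long, gene-poor, mostly silent domains. In ATAC-seq a transposase inserts adapters into accessible DNA, so the reads in a window reflect how often it was cut, and mitochondrial DNA, which carries no nucleosomes, takes a large share of the reads.

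The LMNA libraries had total counts of 193 M, 189 M and 279 M over the feature windows and the LMNB1 libraries of 243 M, 281 M and 233 M, with overlapping windows counting a read more than once. Mitochondrial windows took 39.4%, 44.1% and 39.8% of counts in LMNA and 33.9%, 32.8% and 34.1% in LMNB1, against 39.9% to 47.5% in GFP. LMNB1 replicate 3 stood apart from its group: its counts differed from those of replicates 1 and 2 with a median squared difference 9.49 and 7.69 times counting noise, where the other pairs within a group gave 2.90 to 3.79. No pair was close enough to counting noise to be a library deposited in duplicate. The windows of RPPH1 and RN7SK, the RNA components of RNase P and of the 7SK particle, which every human cell uses, stood 7.26 and 6.84 above their flanks in LMNA on the log2 scale and 7.20 and 6.84 in LMNB1. The windows of microRNAs of other lineages (liver MIR122, blood MIR142 and MIR223, muscle MIR206 and MIR133B, neural MIR124-1 and epithelial MIR200C) held between 0.00781 and 0.134 CPM (counts scaled to the library size) in the 6 libraries, taking the longest window of each. The median over all tested microRNA windows was 0.129 CPM. Relative to their flanks, MIR124-1 stood at 1.62 in LMNA and 2.15 in LMNB1, MIR223 at 1.54 and 1.00, and MIR206 at 0.91 and 0.80. MIR122, MIR142 and MIR200C lay below their flanks in both groups, and MIR133B at -0.22 and 0.14. The windows of MALAT1 stood at 0.89 in both groups, so these markers gave no clear contrast. MIR302A, a marker of pluripotent cells, had too few counts to be tested.

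The overexpressed genes themselves gave the largest differences, in each case over part of the gene. LMNA lies at chr1:156082573-156140081 and LMNB1 at chr5:126776623-126837020 (GRCh38). Of 14 tested windows over either gene, 4 were called, that is, had a Benjamini-Hochberg adjusted p under 0.05 over all windows in edgeR's quasi-likelihood test; over all windows 0.223% were called. In LMNA the window of lnc-SEMA4A-1, a non-coding RNA interval at chr1:156106508-156114988, held 4350, 5332.5 and 3743 CPM in the LMNA libraries, 13.3, 16.5 and 7.07 CPM in the LMNB1 libraries, and 13.2, 11.3 and 8.87 CPM in the GFP libraries. The LMNA libraries were thus far above all others, and the LMNB1 libraries overlapped the GFP libraries (log2 fold change of LMNB1 over LMNA -8.50 ± 0.41, SE, adjusted p = 0.00109). The other 5 windows over LMNA, lnc-RAB25-1 among them, did not pass the test.

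In LMNB1 the reverse was measured. The window of LMNB1-DT, a non-coding RNA transcribed away from the LMNB1 start, at chr5:126777052-126778380 held 9828, 12072 and 8697 CPM in the LMNB1 libraries, 13.9, 36.9 and 20.7 CPM in the LMNA libraries, and 12.5, 8.39 and 11.1 CPM in the GFP libraries. All LMNB1 libraries were higher than every other library (8.74 ± 0.50, adjusted p = 0.00277), although without LMNA replicate 3 the value was 8.65 with an adjusted p of 0.0534. A longer LMNB1-DT window from 126776099 to the same end (8.38 ± 0.39) and a window named for a signal recognition particle RNA copy that spans the gene, chr5:126627602-126936059 (8.05 ± 0.34), contain that interval and were the other called windows, so the 3 rises share reads. By contrast, 5 windows of this promoter region that end at or before 126777068 did not pass the test, including the LMNB1-DT window at chr5:126774708-126776819 that covers the annotated start of LMNB1 (4.399, 4.28 and 3.92 CPM in LMNB1 against 4.12, 4.14 and 3.99 CPM in LMNA, log2 fold change 0.04). In all, 10 windows over the lamin genes were not called, with log2 fold changes of -0.09 to 0.16. LMNA replicate 2 held the highest level of the LMNB1 interval outside the LMNB1 libraries. Summed over the 8 windows over LMNB1, counts made up 4.65%, 5.71% and 4.28% of all counts in the LMNB1 libraries. They made up at most 0.0222% in any LMNA or GFP library. Counts in the 6 windows over LMNA made up 0.452%, 0.497% and 0.383% in the LMNA libraries. The called LMNB1 windows are nested and count a read more than once, and the longest, 308 kb, reaches beyond the gene. The shares of the 2 genes are therefore not comparable. Whether these reads come from the genome or from introduced copies of the genes was not tested.

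Outside the lamin genes, no window was called higher in LMNB1 and 361 windows were called lower, in 107 separate loci on 17 chromosomes. The whole comparison had 3 windows called higher (0.00183% of those tested) and 362 called lower (0.221%), and 8789 windows (5.37%) had an unadjusted p under 0.05, of which 2858 were higher and 5931 lower. Of the 163786 windows tested, 151466 were long non-coding RNA intervals, as were 359 of the 361 windows called lower. Their log2 fold changes ran from -1.53 to -0.27 with a median of -0.49, beside a median of 0.00 (0.0047) over all windows tested. They were also long: their median length was 168 kb against 5.30 kb for all windows, and 94.5% of them exceeded 30 kb against 18.5% of all. Calls followed length more than the size of the fall did. In regions with no protein-coding gene within 500 kb, windows of 3 to 10 kb had a median of -0.14 with 0 of 1326 called. Those of 100 to 300 kb there had a median of -0.16 with 90 of 923 called. Among the 361 windows, the share with no more than 2 protein-coding genes within 500 kb of the centre was 93.4%, against 17.8% of all. The plot of fold change against level shows these windows as a band below the bulk of windows of the same level.

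**Figure D1:**
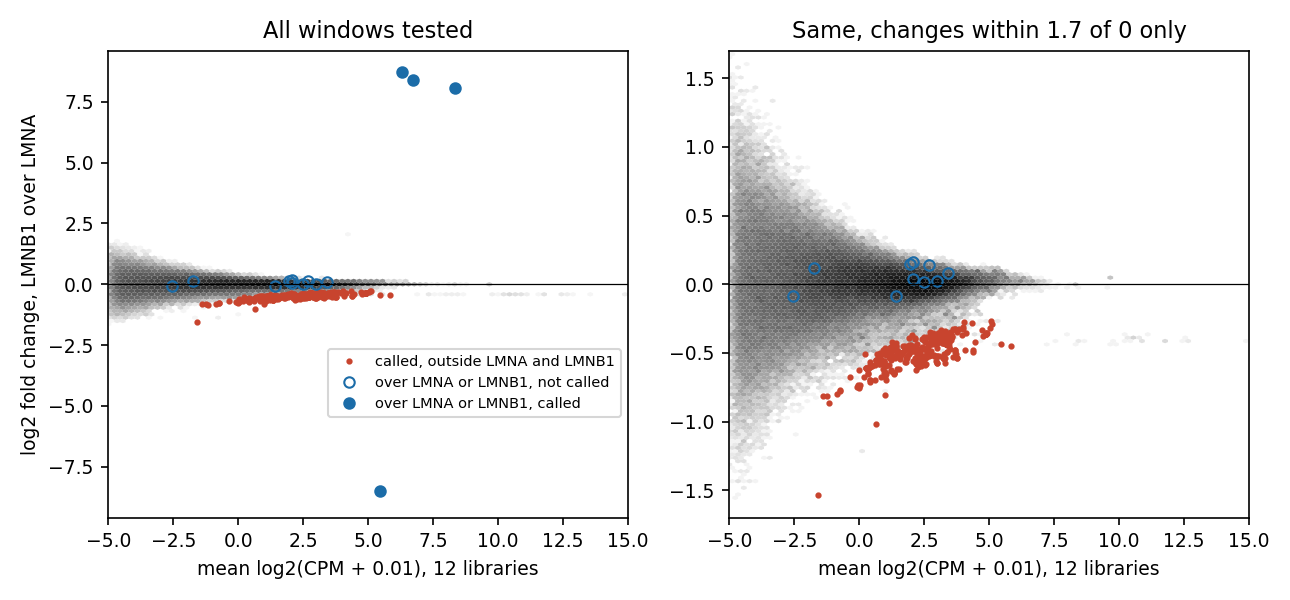
Log2 fold change of LMNB1 over LMNA against the mean log2(CPM + 0.01) over 12 libraries for each window; grey shading is the density of windows not called, on a log scale, red points are called windows outside the lamin genes, and blue circles are windows over LMNA or LMNB1 (filled where called). The right panel shows only changes within 1.7 of 0, where all 361 red points lie below the line.

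The count of 362 windows called lower, which includes 1 over LMNA, rested on single libraries and on how libraries were scaled. The counts called lower that follow include that window too. Leaving out LMNA replicate 3, LMNB1 replicate 1 or LMNB1 replicate 2 left 4 windows called lower each time, and leaving out LMNA replicate 1 or LMNA replicate 2 left 104 and 42. Leaving out LMNB1 replicate 3 gave 1664, GFP replicate 1 gave 893, GFP replicate 3 gave 883 and LMNB2 replicate 1 gave 237. DESeq2's Wald test called 883 lower, and a fit of only the 6 compared libraries called 1073. Scaling by total counts alone left 3, and scaling by total nuclear counts left 85. Those scalings moved the median of all windows from 0.00 to 0.10 and 0.03. All of the 361 windows had the 3 LMNB1 libraries below the 3 LMNA libraries. Their choice by this contrast favours that, so it is no separate support for the calls. Over all windows tested, the groups were apart in either direction in 11%.

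The GFP libraries lay between the groups at most of these windows. Relative to the mean of all 12 libraries, the median level of the 361 windows was 0.24, 0.28 and 0.29 (log2) in the LMNA libraries, -0.33, -0.24 and -0.06 in the LMNB1 libraries, -0.25, -0.05 and 0.10 in the GFP libraries, and -0.03, 0.10 and -0.05 in the LMNB2 libraries. These values are a description, since the windows were chosen by the contrast. The LMNA libraries were the tightest group and the highest, and LMNB1 replicate 3 lay among the GFP and LMNB2 libraries. The GFP mean fell between the other means in 349 windows, GFP libraries overlapped the LMNB1 libraries in 338, and they overlapped the LMNA libraries in 80.

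The flanking windows had lower levels as well, although within a locus the flank of one called window often lies inside another, so the flanks are no independent measure. Beside the 361 windows, the 50000 bp flanks had a median log2 ratio of LMNB1 over LMNA of -0.43, with 359 of 361 below 0, where the flanks of all windows had a median of 0.01 with 41.4% below 0. The medians were -0.40 for the 5000 bp flanks and -0.35 for the 500 bp flanks. With the flank counts as an offset in the same edgeR fit, only 2 of the 361 windows were still called, both at lnc-SLC12A7-1, and the median log2 fold change of the 361 was -0.06.

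The window of lnc-SLC12A7-1 had the largest fall of the windows named by level and separation, and it differed from the others in its surroundings. It lies at chr5:1040593-1048462, between NKD2 and SLC12A7 (which encodes a potassium-chloride cotransporter), in a region with 20 protein-coding genes within 500 kb of its centre. It held 2.59, 2.37 and 2.01 CPM in the LMNA libraries and 1.13, 1.19 and 1.09 CPM in the LMNB1 libraries. The GFP libraries, at 2.52, 2.05 and 2.45 CPM, overlapped LMNA, and the LMNB2 libraries, at 0.738, 0.993 and 1.29 CPM, overlapped LMNB1. The fall was -1.02 ± 0.14 on the log2 scale (adjusted p = 0.00109), and its 50000 bp flanks had a log2 ratio of 0.03. This interval was already known from earlier results of these data, so its appearance here is not independent support. It stayed called under each of the 22 alternatives tried, from -0.92 to -1.12.

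Levels were lower in every window over the non-coding interval, but a fall over its last stretch was not shown. Past 1048462 there is only the window chr5:1040844-1050458, which had the smallest fall (-0.80 ± 0.12). Its mean was 2.68 CPM in LMNA and 1.53 CPM in LMNB1, against 2.32 and 1.14 CPM in the window that ends at 1048462. In the 29 overlapping windows there, 20 of them named lnc-SLC12A7-1 and the others lnc-NKD2-1 or lnc-NKD2-3, all log2 fold changes were below 0 (-1.62 to -0.80, median -1.22). Of these, 25 had an unadjusted p under 0.05 and 3 were called, but they share reads and are not separate observations. Toward the far end LMNA replicate 1 carried the difference: without it the windows from 1045566 and 1045821 had log2 fold changes of -0.11 and -0.07. Per kb of window, the LMNB1 mean was between 0.135 and 0.159 CPM at every window, while the LMNA mean ranged from 0.279 to 0.447 CPM and the GFP mean from 0.271 to 0.453 CPM. In the shortest called window, chr5:1044691-1045960, the level was 0.571, 0.466 and 0.302 CPM per kb in LMNA, 0.163, 0.151 and 0.130 CPM per kb in LMNB1, 0.388, 0.342 and 0.435 CPM per kb in GFP and 0.0899, 0.162 and 0.353 CPM per kb in LMNB2 (-1.53 ± 0.32, adjusted p = 0.0433). The interval ends 75 bp inside SLC12A7 and starts 1.65 kb beyond NKD2. The deposited small RNA counts were too low there for a test.

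**Figure D2:**
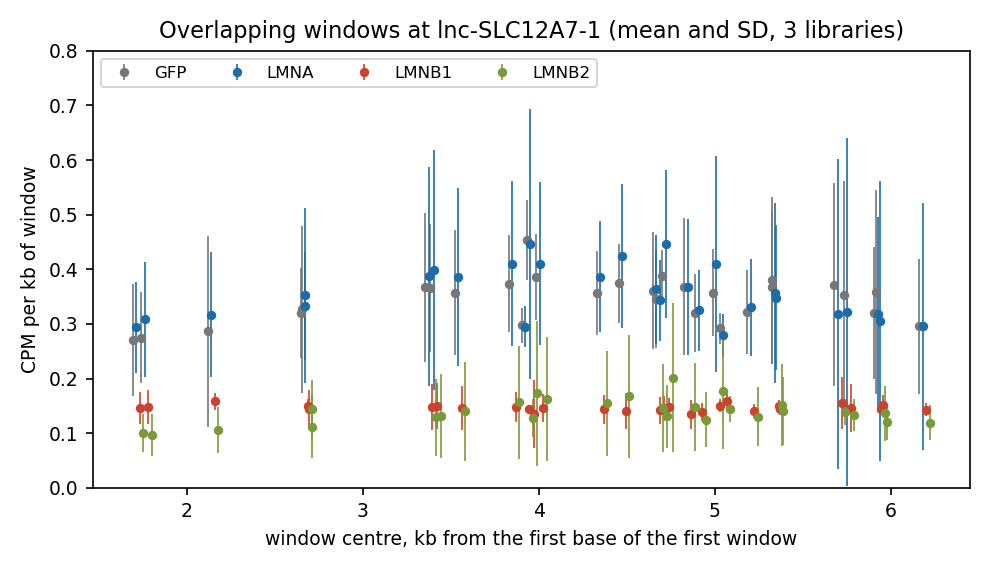
CPM per kb of window (mean and SD of 3 libraries) at the 29 overlapping windows of the lnc-SLC12A7-1 interval, plotted by the distance of the window centre from the first base of the first window, with the 4 groups set slightly apart along the axis. GFP and LMNA run together between 0.271 and 0.453 CPM per kb, and LMNB1 stays between 0.135 and 0.159 CPM per kb.

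The other 11 windows with the largest falls at or above the median level lay in gene-poor surroundings with flanks that were lower too. All 11 had at most 4 protein-coding genes within 500 kb of the centre, and their 50000 bp flanks had log2 ratios of -0.61 to -0.32. LINC02405 (chr12:127030378-127060561) held 1.28, 1.39 and 1.45 CPM in the LMNA libraries and 0.746, 0.879 and 0.815 CPM in the LMNB1 libraries, with GFP at 0.934, 0.692 and 1.03 CPM (-0.75 ± 0.13, adjusted p = 0.00983). LMNA was apart from both other groups, and GFP overlapped LMNB1. HSALNG0046282 (chr5:161756220-161802640) held 1.78, 1.71 and 1.66 CPM in LMNA and 0.891, 1.09 and 1.16 CPM in LMNB1 (-0.71 ± 0.12). The lnc-PLA2G4A-7 window (chr1:189150393-189308027), 158 kb with no protein-coding gene within 500 kb, held 5.88, 6.04 and 5.86 CPM in LMNA and 3.62, 3.79 and 4.09 CPM in LMNB1, with GFP at 3.52, 4.35 and 5.15 CPM (-0.63 ± 0.10, adjusted p = 0.00484). The GFP libraries again spanned the LMNB1 range and reached toward LMNA without touching it. PCGEM1 (chr2:192749677-192784102), a non-coding RNA first described in prostate cancer, held 1.69, 1.47 and 1.69 CPM in LMNA and 0.930, 1.06 and 1.18 CPM in LMNB1 (-0.61 ± 0.13, adjusted p = 0.0416). GFP libraries overlapped the LMNB1 libraries in 8 of these 11 windows and the LMNA libraries in none. At HSALNG0046282, HSALNG0021256 and ENSG00000189229.11 the GFP libraries lay between the groups without touching either. These calls rested on single libraries too: leaving out LMNA replicate 3, LMNB1 replicate 1 or LMNB1 replicate 2 kept only 1 of the 12 called each time, lnc-SLC12A7-1, while all 12 stayed below 0. The remaining ones (lnc-SEC61G-7, ENSG00000189229.11, lnc-RYR2-2, HSALNG0021256, ENSG00000256128.6, lnc-BRINP3-7 and HSALNG0052086) fell by 0.61 to 0.70 on the log2 scale.

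**Figure D3:**
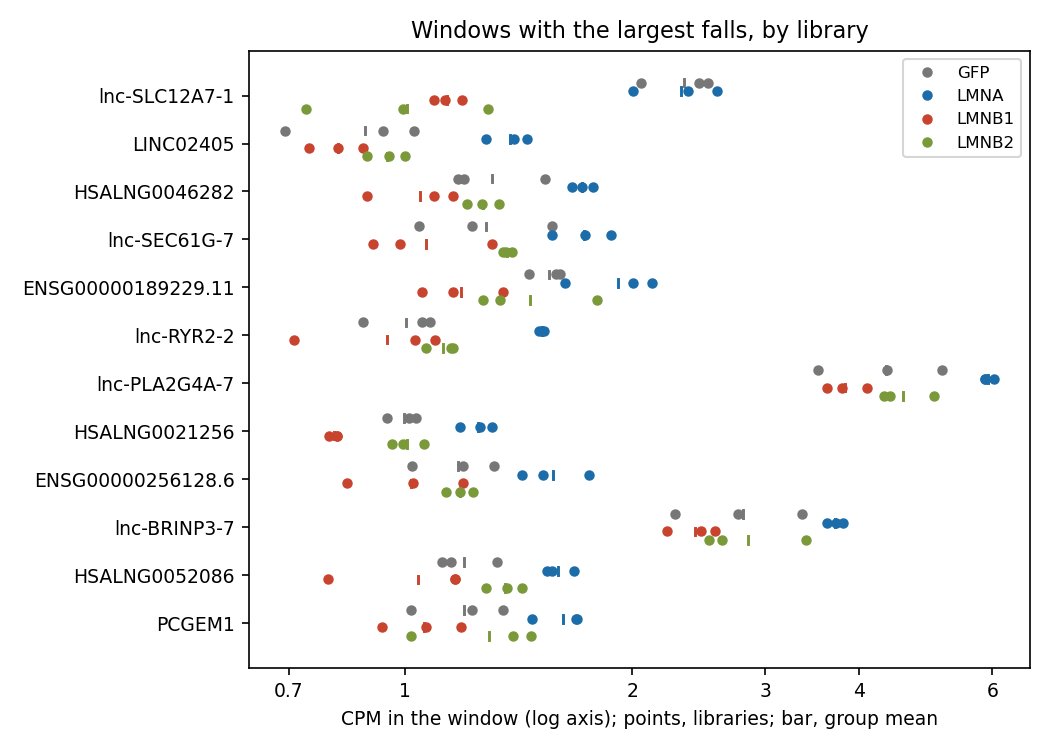
CPM on a log axis in each of the 12 libraries (points) with the group mean (bar) for the 12 named windows, those with the largest falls among called windows at or above the median level, one row per window and one colour per group. In every row the 3 LMNB1 points lie left of the 3 LMNA points, as the choice of windows required. GFP sits with LMNA at lnc-SLC12A7-1 and between or beside LMNB1 in the other rows.

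The loci with most called windows were long stretches, most of them without a protein-coding gene. The one around GRM7-AS3, an antisense transcript near the glutamate receptor gene GRM7, covered chr3:6465329-6805629 with 36 called windows. Its leading window held 2.54, 2.77 and 2.62 CPM in the LMNA libraries and 1.58, 1.51 and 1.88 CPM in the LMNB1 libraries, with GFP at 1.61, 1.81 and 2.00 CPM (-0.67 ± 0.10, adjusted p = 0.00484). The longest, around lnc-MAT2B-3 at chr5:164296547-166083992, spanned 1787 kb, and its leading window held 53.0, 52.8 and 52.7 CPM in LMNA against 36.9, 38.0 and 42.2 CPM in LMNB1 (-0.44 ± 0.06, adjusted p = 0.00484). The LMNA libraries agreed closely there, GFP ran from 37.0 to 45.9 CPM, and the highest LMNB1 library lay inside that range. The locus of LINC01435 covered chr10:107694823-108111650 with 10 called windows. Its leading window, chr10:107805788-108041344, held 10.2, 9.73 and 9.46 CPM in LMNA and 6.66, 7.23 and 8.18 CPM in LMNB1 (-0.41 ± 0.08). Of the 107 loci, 52 held a single called window, and together they covered 27.6 Mb. No protein-coding gene overlapped 92 of them. The remaining 15 overlapped 15 protein-coding genes, among them the potassium channel genes KCNN2, KCNH8 and KCNV1, NETO1 (an auxiliary protein of glutamate receptors), LRFN5 (a synaptic adhesion protein), RGS18 and RGS21 (regulators of G-protein signalling) and FUT9 (a fucosyltransferase).

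Transcription starts inside the lower windows were poor in CG pairs, as shown by the bases before them. RefSeq (GRCh38.p14) gave 79 starts of 75 genes inside the 361 windows. Over the 250 bases before the start, their median GC content was 38.4% and their median number of CG pairs was 1, against 58.0% and 11 over 35116 starts of all genes, and 83.5% of them held at most 3 CG pairs against 29.3% of all. The motif TATAAA, searched on both strands in the 250 bases before to 50 after the start, occurred in 26.6% against 11.5% of all. It holds only A and T, and the median GC content of these stretches was 39.0% against 58.7%. Its share was not separated from base composition. These are descriptions of where the windows lie. The sequences below show the range, with CG pairs in capitals, 5′ to 3′ on the strand of the gene. The start of PCGEM1 lies in its called window but the bases before it do so only in part, so it is not among the 79. LINC02143 and LINC01938 lie in the lnc-MAT2B-3 locus, and NETO1 has a CG-poor and a CG-rich start within one called window. The bases before LMNB1, which lie inside 7 windows of which 2 were called, are given for comparison.
LMNB1, chr5:126776373-126776622, plus strand, 48.4% GC, 10 CG pairs: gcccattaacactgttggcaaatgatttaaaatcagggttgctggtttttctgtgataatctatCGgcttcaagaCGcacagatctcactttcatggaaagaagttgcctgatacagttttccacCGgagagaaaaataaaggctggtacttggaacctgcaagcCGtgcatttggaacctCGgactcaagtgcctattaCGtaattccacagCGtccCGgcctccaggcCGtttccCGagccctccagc
PCGEM1, chr2:192749595-192749844, plus strand, 37.6% GC, 0 CG pairs: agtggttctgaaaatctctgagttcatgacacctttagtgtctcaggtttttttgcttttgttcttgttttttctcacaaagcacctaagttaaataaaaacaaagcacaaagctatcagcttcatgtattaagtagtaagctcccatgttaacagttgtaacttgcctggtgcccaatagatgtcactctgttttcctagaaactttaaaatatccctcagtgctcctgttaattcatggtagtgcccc
LINC02143, chr5:164467403-164467652, minus strand, 37.2% GC, 2 CG pairs: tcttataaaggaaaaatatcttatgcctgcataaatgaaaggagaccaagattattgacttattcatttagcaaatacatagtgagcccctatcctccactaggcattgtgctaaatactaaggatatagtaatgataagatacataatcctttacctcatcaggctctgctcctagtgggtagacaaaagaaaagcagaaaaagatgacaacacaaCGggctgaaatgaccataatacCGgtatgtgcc
LINC01938, chr5:165243500-165243749, minus strand, 31.2% GC, 0 CG pairs: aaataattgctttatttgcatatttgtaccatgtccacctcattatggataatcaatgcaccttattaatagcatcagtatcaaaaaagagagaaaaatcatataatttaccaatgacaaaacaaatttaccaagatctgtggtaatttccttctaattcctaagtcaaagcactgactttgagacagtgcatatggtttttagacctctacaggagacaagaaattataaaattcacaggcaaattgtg
NETO1, chr18:72865687-72865936, minus strand, 34.4% GC, 1 CG pairs: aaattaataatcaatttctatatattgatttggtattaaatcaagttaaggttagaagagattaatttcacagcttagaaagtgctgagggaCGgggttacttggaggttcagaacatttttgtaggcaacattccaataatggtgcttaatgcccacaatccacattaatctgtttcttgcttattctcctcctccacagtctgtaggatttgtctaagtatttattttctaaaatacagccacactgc
NETO1, chr18:72867200-72867449, minus strand, 63.2% GC, 18 CG pairs: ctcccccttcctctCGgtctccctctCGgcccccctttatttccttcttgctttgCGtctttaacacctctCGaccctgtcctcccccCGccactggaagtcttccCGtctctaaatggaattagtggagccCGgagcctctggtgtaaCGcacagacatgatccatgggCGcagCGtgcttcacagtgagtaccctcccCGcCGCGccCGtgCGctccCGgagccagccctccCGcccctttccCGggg

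The difference followed gene density over the whole table and not only at called windows. The 7060 windows with no protein-coding gene within 500 kb of their centre had a median log2 fold change of -0.13, with 72.8% below 0 and 165 called lower (2.34%). Windows with 1 to 2 such genes had a median of -0.03, those with 3 to 5, 6 to 10 and 11 to 20 genes medians of 0.01, 0.02 and 0.01, and those with over 20 genes a median of 0.00 with none called. An unadjusted p under 0.05 was found in 23.9% of the windows with no gene (1602 lower, 84 higher) and in 2.32% of those with over 20 genes. Among the windows called lower, 45.7% had no protein-coding gene within 500 kb, against 4.31% of all nuclear windows. In regions with no gene the median was below 0 at each window length: -0.07 up to 0.5 kb, -0.16 to -0.12 in the classes between 0.5 and 300 kb, and -0.08 over 300 kb.

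The GFP libraries differed among themselves by more than this shift. Each library was described by the difference between its median level in regions with no gene and in regions with 11 to 20 genes. This was 0.06, 0.05 and 0.14 (log2) in the LMNA libraries and -0.17, -0.11 and 0.04 in the LMNB1 libraries. LMNB1 replicate 3, at 0.039, lay only just under the lowest LMNA library, at 0.049. The difference between the group means was -0.17, with an exact two-sided permutation p of 0.1, the smallest that 3 against 3 can give. The GFP libraries alone ran from -0.16 to 0.14, and the LMNB2 libraries from 0.01 to 0.14. Without the called windows the order was nearly kept, with LMNA at 0.06, 0.04 and 0.14 and LMNB1 at -0.16, -0.11 and 0.04, where LMNB1 replicate 3 and LMNA replicate 2 were level (0.0446 each). The mitochondrial share of LMNB1 replicate 3, at 34.1%, was close to that of its group.

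**Figure D4:**
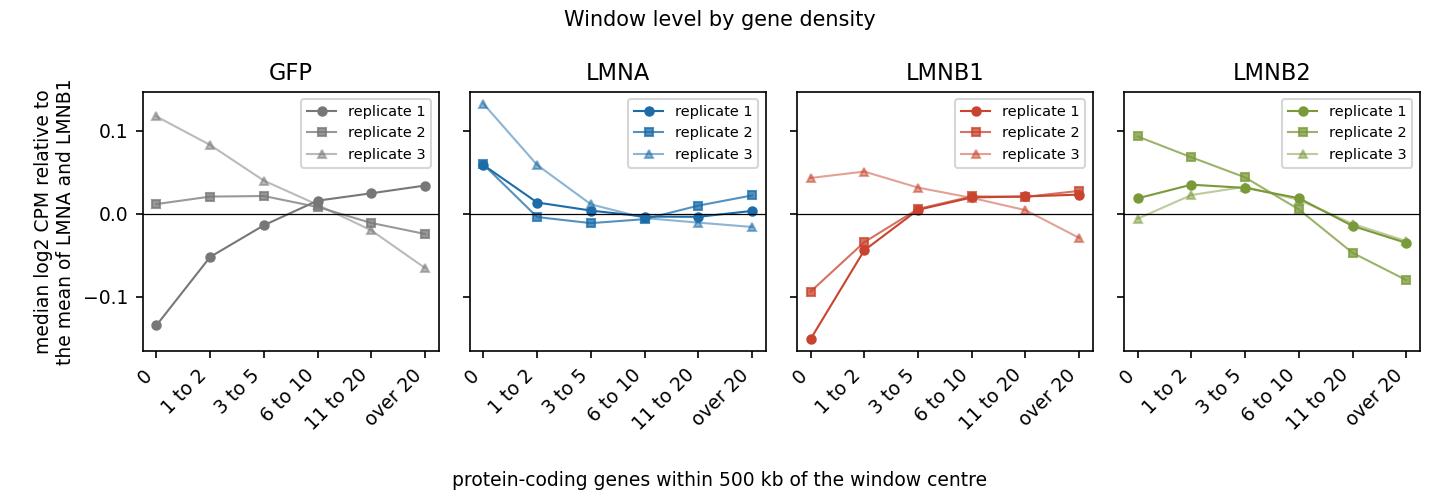
Median log2 CPM of the windows in each class of gene density (number of protein-coding genes within 500 kb of the window centre), relative to the mean of the LMNA and LMNB1 libraries, one panel per group and one line per library. In regions with no gene the LMNA libraries lie above 0 and LMNB1 replicates 1 and 2 below it, LMNB1 replicate 3 lies near the LMNA libraries, and the GFP libraries fan out as widely as the groups differ.

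RNA polymerase III genes, which encode tRNAs and other short structural RNAs and have compact accessible promoters, were not called in either direction. The study's title names this polymerase. Of 576 such windows 560 were tested, and 0 were called by edgeR, beside 0.223% of all windows. An unadjusted p under 0.05 was found in 8 (1.43%; 2 higher, 6 lower), beside 5.37% of all windows, and the median log2 fold change was -0.02. Their median length was 373 bp. Among windows of all classes, 0 of 9427 up to 0.5 kb and 0 of 15185 from 0.5 to 1 kb were called lower. The absence of calls is thus not particular to Pol III genes. DESeq2's Wald test also called 0 of them and had 8 at an unadjusted p under 0.05. By class, 480 tRNA gene windows had a median of -0.03 with 0 called, 17 windows of 5S rRNA, the RNA of the large ribosomal subunit, -0.05, 38 SNAR windows 0.01, 9 U6 spliceosomal RNA windows 0.02, and 4 vault RNA windows 0.02. Copies of these families share reads where their sequences match, so their windows are not independent. Among 22 tRNA isotypes the highest median was that of initiator methionine (0.04, 9 windows) and the lowest that of selenocysteine (-0.22, 3 windows), followed by valine (-0.08, 34 windows).

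No single Pol III gene passed the test. The 7SK gene RN7SK, which encodes a regulator of transcription elongation, held 9.87, 9.64 and 8.23 CPM in LMNA and 10.02, 9.07 and 9.04 CPM in LMNB1 (0.02 ± 0.09). RPPH1 held 11.5, 11.6 and 10.9 CPM in LMNA and 11.8, 11.7 and 9.66 CPM in LMNB1 (-0.04 ± 0.08). The groups overlapped at both. RMRP, the RNA of RNase MRP (-0.02 ± 0.09), the signal recognition particle genes RN7SL1 (0.03 ± 0.09) and RN7SL2 (0.04 ± 0.09), and VTRNA2-1 (-0.06 ± 0.10) were alike in this. BCYRN1, which encodes the neuronal BC200 RNA, held 1.12, 1.20 and 1.16 CPM in LMNA and 1.24, 1.25 and 1.21 CPM in LMNB1, so the groups did not overlap, as in 11% of all windows, and it did not pass the test (0.08 ± 0.13). The largest difference among the singly named genes was at RNY4, a Y RNA gene with few counts (0.32 ± 0.23).

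**Figure D5:**
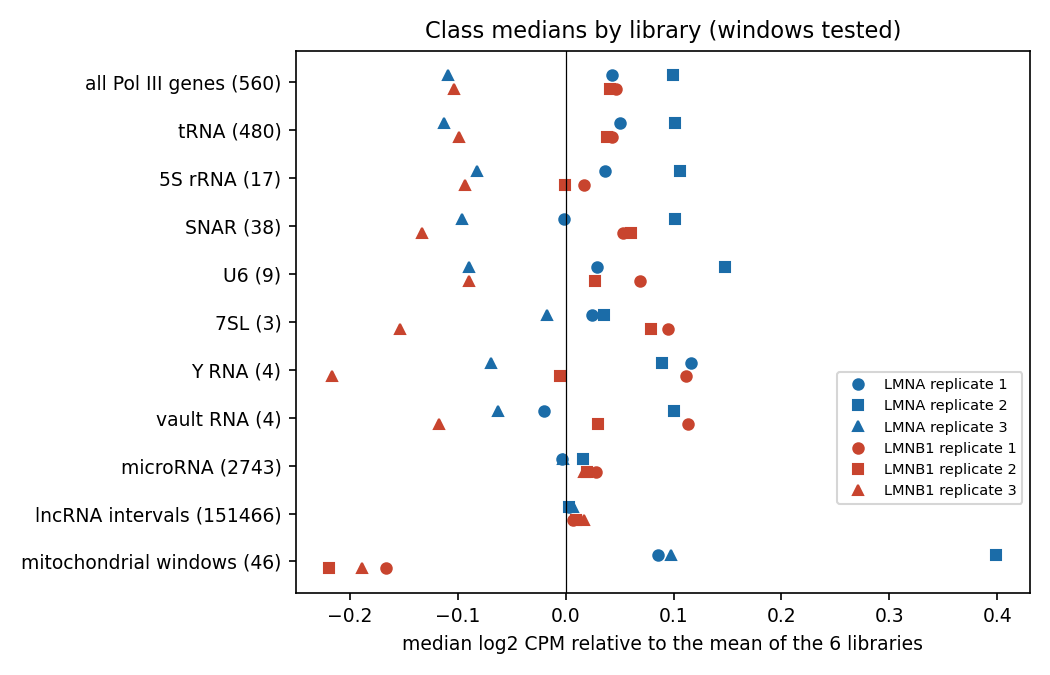
Median log2 CPM of each class of windows in each LMNA and LMNB1 library, relative to the mean of the 6 libraries, with the number of windows tested in brackets and the replicate given by the symbol. Replicate 3 of both groups is the lowest for Pol III genes, the groups overlap in every Pol III class drawn, and the mitochondrial windows are the class with the widest gap between the groups.

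The height of Pol III windows above their surroundings differed by less than the spread between replicates. The median log2 ratio of window over 50000 bp flanks, per base, was 3.39, 3.32 and 3.28 in the LMNA libraries and 3.37, 3.40 and 3.36 in the LMNB1 libraries, a difference of 0.05 (means 3.33 ± 0.06 and 3.38 ± 0.02, SD, n = 3, exact two-sided permutation p = 0.3). GFP stood at 3.34 ± 0.05. Over all windows the ratio was -0.07 ± 0.01 in LMNA and -0.07 ± 0.03 in LMNB1 (exact permutation p = 1.0), and over 766 windows of lncRNAs that start divergently from coding genes 0.83 ± 0.03 and 0.82 ± 0.05 (exact permutation p = 0.8). When windows were put in 10 classes by this ratio in the GFP libraries, the most open class had medians of 0.01, 0.07 and -0.03 in LMNA and 0.06, 0.04 and -0.14 in LMNB1 relative to the 6 libraries. LMNB1 replicate 3 was the lowest and the other LMNB1 libraries among the highest, so no difference between the groups was larger than the spread (most minus least open class -0.08, exact permutation p = 0.8).

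Other classes of non-coding RNA differed little. MicroRNA windows had a median of 0.02, with 2743 tested, 0 called by edgeR and 6 by DESeq2. DESeq2 called 891 of all 163786 windows. At an unadjusted p under 0.05 in edgeR's test, 94 microRNA windows were higher and 75 lower, together 6.16%, beside 5.37% of all windows. SNHG genes, which host small nucleolar RNAs, had a median of -0.03 (336 tested, 0 called by either tool, 0.893% at that p). LncRNAs of the HOX clusters had a median of 0.04 (83 tested, 0 called by either tool). Of these, 7 were higher and 0 lower at that p, 8.43%, where 1.74% of all windows were higher and 3.62% lower. LINC intervals, long intergenic RNAs, held 51 of the windows called lower among 10560 tested (0.483%), and antisense intervals 6 among 8942 (0.0671%), beside 0.221% of all windows. Abundant and much studied lncRNAs were not called at any window: 39 windows of MALAT1 had a median log2 fold change of 0.03, 30 of NEAT1 -0.01, 47 of GAS5 -0.05 and 36 of SNHG1 -0.02. H19, an imprinted RNA gene, had 22 windows from 0.10 to 0.69 and none with an unadjusted p under 0.05. HOTAIR, in the HOXC cluster, had 11 windows from 0.12 to 0.33, 3 of them with an unadjusted p under 0.05, and KCNQ1OT1, HOTTIP, HOXA-AS2, HOXA-AS3 and MIR17HG had medians of -0.04 to 0.04. Among these, 3 of 11 HOXA-AS2 windows (up to 0.67) and 1 of 6 KCNQ1OT1 windows had an unadjusted p under 0.05. The lowest KCNQ1OT1 window was at -1.04.

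The highest windows outside the lamin genes did not pass the test. By the lowest p among windows with the groups apart, these were LINC00511, PCDH9-AS2, lnc-DHCR7-3, lnc-PLCG1-1, NONHSAG052666.2, ENSG00000237372.3, lnc-ADAMTS14-2 and lnc-DGAT2-4, with adjusted p of 0.137 to 0.264. LINC00511 (chr17:72404618-72407718) held 2.33, 2.03 and 2.23 CPM in LMNA, 2.93, 2.95 and 2.53 CPM in LMNB1, and 3.04, 2.68 and 2.68 CPM in GFP (0.35 ± 0.09, adjusted p = 0.137). LMNB1 was like GFP there and LMNA lower. PCDH9-AS2 (chr13:66909724-66944137), antisense to a protocadherin gene, held 1.82, 1.48 and 1.76 CPM in LMNA and 2.38, 2.05 and 2.13 CPM in LMNB1 (0.37 ± 0.10, adjusted p = 0.173), with 1 protein-coding gene within 500 kb of its centre.

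By chromosome, medians were within 0.05 of 0 except on the mitochondrial chromosome and on the few windows of chromosome Y. On chromosome 21 the median was 0.03 over 2867 windows tested. Of these, 179 were higher and 27 lower at an unadjusted p under 0.05, and none was called. Over all windows 1.74% were higher and 3.62% lower at that p, and overlapping windows share reads. The library medians on chromosome 21 were -0.03, -0.02 and 0.01 in LMNA and 0.01, 0.02 and 0.06 in LMNB1. The groups were apart in this way on 6 of 25 chromosomes, the mitochondrial one included. On chromosome X the median was -0.05 over 4788 windows tested, with 33 higher and 298 lower at that p. LMNB1 replicate 3 (0.07) went against replicates 1 and 2 there (-0.07 and -0.03). All 46 mitochondrial windows were lower in LMNB1, with a median of -0.40 and 34 at an unadjusted p under 0.05. DESeq2, which called 891 of all 163786 windows, called 1 of these 46, and edgeR called 0 of them. They share one genome and are a single observation: LMNA had 39.4%, 44.1% and 39.8% of counts there and LMNB1 33.9%, 32.8% and 34.1% (exact two-sided permutation p = 0.1, the smallest possible). With the mitochondrial windows left out of the fit, 395 nuclear windows were called lower.

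The small RNA libraries of the same conditions showed no called difference at the lower windows. Of the 361 windows, 83 had enough small RNA counts for a test. None was called, 6 had an unadjusted p under 0.05, beside 5.74% of all features, and the median log2 fold change was -0.01. Over all 33893 features tested, 4 (0.0118%) were called, all higher in LMNB1, 3 of them the windows that were called over LMNB1. A fit of only the 6 compared small RNA libraries called 130. The LMNB1-DT feature in the window from 126777052 held 17.8, 19.3 and 17.6 CPM of small RNA in LMNB1 and 0.0684, 0.0621 and 0.0526 CPM in LMNA (7.95 ± 0.27, adjusted p = 9.15e-12). The remaining one, lnc-TFAP2A-3, held 1.11, 1.14 and 0.748 CPM of small RNA in LMNB1 and 0.243, 0.311 and 0.333 CPM in LMNA (1.71 ± 0.20, adjusted p = 0.00117), with an accessibility change of -0.06 ± 0.05. Small RNA at tRNA genes had a median of -0.08 over 462 features, with 0 called.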

How the data were processed

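ATAC-seq and small RNA libraries of HEK293 cells overexpressing eGFP, LMNA, LMNB1 or LMNB2 were deposited as tables of raw read counts per window by the authors, aligned to GRCh38 per the submitters' processing notes. The aligner, the counting rule, any shift of the cut sites, strand and duplicate handling are not given in the sources used here. Windows overlap, so one read can enter several. From the counts, edgeR 4.0.16 (R 4.3.3) fitted group means over the 12 ATAC libraries with filterByExpr, TMM scaling and robust quasi-likelihood dispersions, and the contrast of LMNB1 minus LMNA was tested over 163786 windows with Benjamini-Hochberg adjustment and a threshold of 0.05. Fold changes use a prior count of 2, and SE is the absolute fold change over the square root of F. The small RNA counts were fitted in the same way. Levels per library are log2(CPM + 0.01). Single values per library were compared by exact two-sided permutation tests. Named windows were those over LMNA and LMNB1, the 12 largest falls among called windows with the groups apart and a level at or above the median (one per cluster of overlapping windows), the 8 higher windows of lowest p under the same rule where none was called, a list of Pol III, lncRNA and marker genes, and lnc-SLC12A7-1. The loci described hold the most called windows. Members and lists were chosen with earlier results of these data known. On counts simulated for LMNB1 minus LMNA over 163786 windows, the test called 61% of 100 windows changed by 0.5 (log2) and 100% of 100 changed by 1, with 8 false calls. The simulated windows were independent, shared a single dispersion and were changed only where the mean was at least 100 counts. The real windows overlap, many hold fewer counts and LMNB1 replicate 3 stood apart, so these rates do not carry over to them. Alternatives covered scaling, filters, DESeq2 1.42.0, flank offsets, a replicate block and leaving out each library. Window by window, same-numbered LMNA and LMNB1 libraries showed little shared deviation (correlations of -0.01, 0.02 and 0.06), so numbers were not used as pairs. The difference between regions with no gene and with 11 to 20 genes did follow the number in part. Replicate 3 was highest in GFP (0.14), LMNA (0.14) and LMNB1 (0.04), but replicate 2 in LMNB2 (0.14). The cause was not tested.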

Additional observations from a re-analysis of the deposited data

Results flagged for a closer look

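Flanking windows of 500 bp inside LMNB1 were outside the comparison of feature windows, and 4 of them had all LMNB1 libraries above all GFP libraries. The flank starting at 126777419 on chromosome 5 held 2126-fold the GFP mean in the LMNB1 libraries, and the one starting at 126777170 held 1854.5-fold. The flanks starting at 126776987 and 126776988, nearer to the annotated start of the gene, held 1.86-fold and 1.98-fold. These flanks overlap one another and share reads.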

How the results depend on the processing

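The number of windows called lower was 362. It was 883 by DESeq2's Wald test, 1073 with only the 6 compared libraries, 16 with the 50000 bp flanks as offset, 3 with total counts only, 85 with total nuclear counts (chosen after seeing the data), 74 at an adjusted p of 0.01, 3 when a fold change of 1 or more on the log2 scale was also required, and 4 to 1664 when one library was left out. The number called higher, 3, became 8, 7 and 9 under the first 3 of these, and 2 to 7 without one library. The counts with the flank offset are not comparable with the others. Of the 25 windows called with it in either direction, 23 lie over or within 39.7 kb of LMNA or LMNB1. Reads of these overexpressed genes can therefore enter the window or its 50000 bp flanks. The replicate number as a block gave 853 lower and 6 higher, with 361 of the 362 lower windows shared. The main fit did not use the numbers as pairs. With the flank offset lnc-SEMA4A-1 turned to 0.21, LMNB1-DT from 126776099 to -0.25 and lnc-BRINP3-7 to 0.00 (0.004). Medians moved with scaling by total counts only, to 0.0755 for Pol III genes, -0.29 for mitochondrial windows, 0.113 for microRNAs, 0.0528 for chromosome X and 0.134 for chromosome 21. Total nuclear counts gave 0.0409 for microRNAs and 0.0608 for chromosome 21, and the flank offset 0.0057 and 0.0014. Without one library the mitochondrial median ran from -0.45 to -0.28 and the microRNA median from 0.0064 to 0.0216. The Pol III median ran from -0.0821 to 0.028, changing sign, chromosome X from -0.0906 to -0.0285, the Pol III flank ratio difference from 0.0204 to 0.0758, and the difference of most and least open classes from -0.157 to 0.0481. The Pol III ratio to 500 bp flanks differed by -0.0219. For LMNB1-DT from 126777052 the value without one library ran from 8.47 to 9.20. Small RNA calls rose to 130 with only 6 libraries. The cause of these changes was not tested.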
